A study of Mus musculus with 12 samples.

Results

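The genotype by doxorubicin interaction asks whether a gene responded differently to doxorubicin in fibroblasts without the long noncoding RNA lincRNA-p21 than in wild-type fibroblasts. For each gene it is (KO doxorubicin - WT doxorubicin) - (KO mock - WT mock) on log2(CPM + 1), where CPM is a gene's share of its library's reads on the usual scale of RNA-seq tables. A value above 0 means that the KO response, doxorubicin minus mock, lay above the WT response, and a value below 0 that it lay below. All genes listed in both deposited tables were members, 10292 of the 11481 genes in either table. The cells were primary fibroblasts from mouse embryos with a hybrid 129/B6 background. They were wild type (WT, lincRNA-p21+/+) or knockout (KO, lincRNA-p21-/-) and were mock treated or given doxorubicin for 24 h. The dose stands as 0.5 mM in the labels and is given as stated, since micromolar doses are more usual. Each of the 4 groups had 3 biological replicates, numbered 1 to 3. The labels do not say what a shared number stands for, or from how many embryos the cultures came.

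Doxorubicin is an anthracycline that poisons topoisomerase II and leaves double-strand breaks in DNA. The breaks stabilise p53, which switches on Cdkn1a, the gene of the cyclin-dependent kinase inhibitor p21. By holding kinases of the cell cycle inactive, p21 keeps RB-family proteins bound to E2F, and genes of DNA replication and mitosis are then shut off. LincRNA-p21 is itself induced by p53 and is transcribed next to Cdkn1a, and the study asked how its loss affects that neighbour, the G1/S checkpoint and genes held by Polycomb complexes.

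The listed genes held nearly all of the reads to which the CPM values were scaled, 14327048 to 20511907 per library. A table holds only genes whose 3 WT libraries exceeded 2 CPM, whereas KO values could be lower. Genes that were low in WT in either condition were thus not analysed here. No check of the genotype against the level of lincRNA-p21 was made, as that RNA was not analysed here. Of 20 fibroblast markers, 18 were listed in both tables and summed to 36100 to 78600 CPM per library. Libraries of one number deviated together from their group means across the groups (r = 0.342 to 0.856 over genes), so values are given by number. In bulk RNA fewer cells of a type and less RNA per cell cannot be told apart.

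No gene passed the test of the interaction. Without a term for the replicate number, limma called 0 of 10292 genes (percent called 0) at a Benjamini-Hochberg adjusted p of 0.05, with a smallest adjusted p of 0.922. At an unadjusted p under 0.05 there were 468 genes, 149 with higher and 319 with lower values. With the number as a replicate block, limma again called 0 genes, the smallest adjusted p was 0.171, and 1610 genes were at an unadjusted p under 0.05, 633 higher (6.15%) and 977 lower (9.49%). Every value named from here on is therefore a measured difference that did not pass over all genes. Because 3 responses were set against 3, an exact two-sided permutation test of 1 gene cannot go below p = 0.1.

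The responses of the genotypes were alike in direction and spread less widely in KO cells. Over the 10292 genes the WT and KO responses correlated at r = 0.923, as a description across genes that share the same libraries. The SD of the response over genes was 0.824 in WT and 0.709 in KO, and in each number the KO value was the smaller one (0.777, 0.823 and 0.98 in WT against 0.629, 0.758 and 0.83 in KO). The interaction had a median of 0.0041 over genes, an SD of 0.321 and a 5th to 95th percentile range of -0.606 to 0.419. The lower tail was the longer one, with 98 genes below -1 and 13 above 1. Interaction values of the 3 numbers correlated with each other at r = 0.517, 0.533 and 0.529 over genes.

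**Figure D1:**
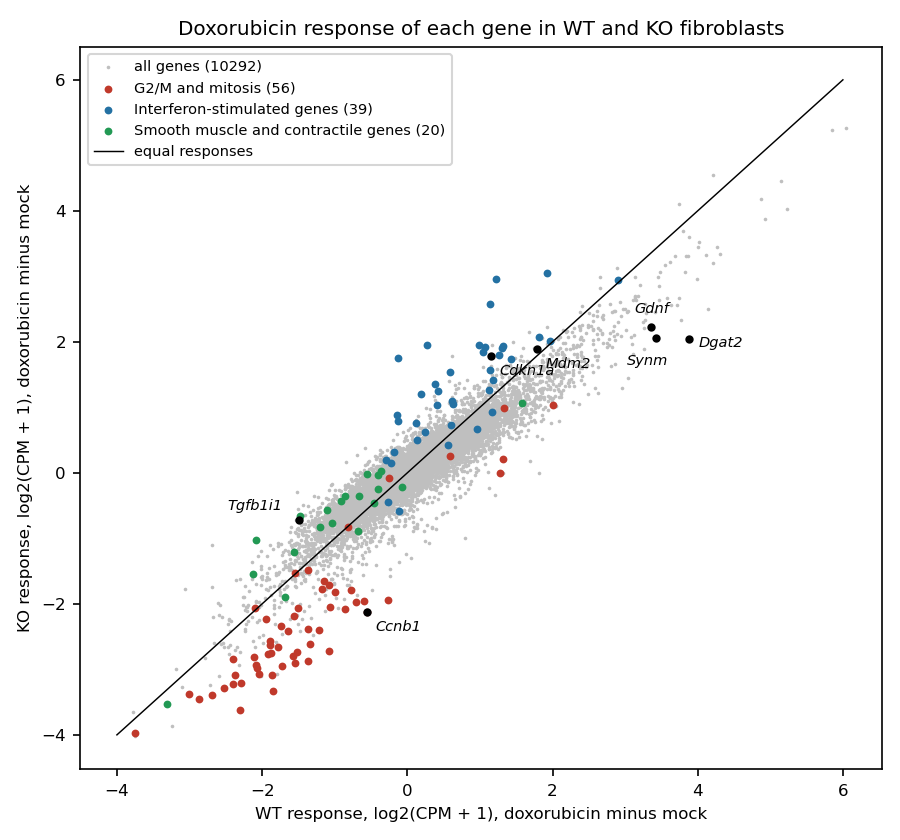
Doxorubicin response of each of the 10292 genes in WT (horizontal) and KO cells (vertical), as log2(CPM + 1) of doxorubicin minus mock, each a mean of 3 libraries minus a mean of 3; the line marks equal responses. The 56 genes of mitosis sit mostly below the line at the left, the interferon-stimulated and contractile genes mostly above it, and genes far to the right mostly below it.

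Genes furthest above mock after doxorubicin had interactions mostly below 0. Genes were sorted by the mean response of both genotypes, which comes from the same 12 libraries as the interaction. Of 166 genes whose mean response was over 2 log2 units, 92.8% had an interaction below 0, with a median of -0.526. The medians of the 3 numbers were -0.759, -0.337 and -0.466, and 113 of these genes were below 0 in every number against 1 above 0 in every number. Of 730 genes with a mean response of 1 to 2, 83.8% were below 0 and the median was -0.355. The share below 0 was 49.5% over all genes, and 26.9% of all genes were below 0 in all 3 numbers. In mock cells the genotypes were close for these genes, with a median KO - WT difference of 0.031 over a mean response of 2 and 0.0232 between 1 and 2. After doxorubicin the median differences were -0.515 and -0.333, so the genotypes differed by more in the treated cells. For the 164 genes over a mean response of 2 with a mean of at least 10 CPM the median interaction was -0.531. Synm, Ddit4l, Gdnf, Icam1, Esrp2, Dgat2, Cebpa, Fos and Sfn, named further on, had mean responses over 2. Those of Fdxr, Ulk1, Rb1, Chrd, Tcf7, Dnajb1, Ppm1d, Hspa1b, Mdga1, Gkap1 and Fam20c were between 1 and 2. The values below 0 of all these genes thus lie on the side common to genes with such responses. Cdkn1a, Mdm2 and Xaf1 also had mean responses between 1 and 2, with interactions above 0.

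Genes below mock after doxorubicin had no single direction. Of 4416 genes with a mean response between -1 and 0, 30.8% were below 0 and the median interaction was 0.112. Between -2 and -1 there were 467 genes with a median of 0.117. The 96 genes below -2 had a median of -0.297, and their number medians of 0.0263, -0.811 and -0.235 differed in sign. Of the 56 mitotic genes described further on, 30 are in that last range.

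Cdkn1a, the gene of p21 that the study's title names, had a larger response in KO than in WT cells. It was at 578, 506 and 613 CPM in mock WT, 304, 283 and 357 CPM in mock KO, 1440.3, 1091 and 1248 CPM in treated WT and 1059, 1072 and 1102 CPM in treated KO cells (numbers 1, 2 and 3). Every KO mock library was below every WT mock library, whereas after doxorubicin the ranges overlapped, with means of 1259.8 ± 175 CPM in WT and 1078 ± 21.9 CPM in KO (SD, n = 3 each). The KO - WT difference was -0.85 in mock and -0.22 after doxorubicin. The response was 1.15 in WT and 1.78 in KO, an interaction of 0.63 (SE 0.18, 95% interval 0.23 to 1.03). Its mean response puts Cdkn1a among the 730 genes between 1 and 2, of which 83.8% were below 0, and its own value lay above 0, from a lower mock level in KO. The values by number were 0.48, 0.81 and 0.60, above 0 in 3 of 3 numbers. Over all genes it did not pass (limma, adjusted p = 0.922, and 0.196 with the replicate block, SE 0.13), and the exact two-sided permutation p of the 3 KO against the 3 WT responses was 0.1.

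The sequence before the upstream RefSeq start of Cdkn1a is shown because it holds a match to the p53 response element (2 half-sites, at most 1 mismatch in 20 bases, both strands). It is at chr17:29090729-29090978, plus strand, in GRCm38.p6, printed 5′ to 3′ with the match in capitals, 51 bases before the start:
Cdkn1a: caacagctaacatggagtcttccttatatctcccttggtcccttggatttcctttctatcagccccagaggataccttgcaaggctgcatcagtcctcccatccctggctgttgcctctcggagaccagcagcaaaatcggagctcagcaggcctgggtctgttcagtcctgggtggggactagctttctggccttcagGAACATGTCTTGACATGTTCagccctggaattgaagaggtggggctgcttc
Such a match was found in 25 of 32851 windows of that length before RefSeq starts (0.0761%) and in 3 of 39 windows of the p53 target genes of arrest and signalling. Among the 10426 windows of genes in both tables, 5 held one (0.048%). The window before the second start of Cdkn1a held none. A match describes letters only.

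Trp53, the gene of p53, showed the reverse pattern. It was at 127, 134 and 112 CPM in mock WT, 144, 164 and 120.1 CPM in mock KO, 252, 245 and 351 CPM in treated WT and 171, 242 and 246 CPM in treated KO cells. The response was 1.17 in WT and 0.61 in KO, and the interaction -0.56 (SE 0.26), with values of -0.74, -0.31 and -0.62 by number. KO libraries were above WT in mock and below WT after doxorubicin within each number. Adjusted p was 0.922 without and 0.307 with the replicate block (limma). Mdm2, whose product degrades p53 and which is itself a p53 target, was at 246, 275 and 235 CPM in mock WT, 253, 284 and 217 CPM in mock KO, 918, 753 and 953 CPM in treated WT and 925, 932 and 928 CPM in treated KO cells. Its interaction was 0.10 (SE 0.17, 95% interval -0.28 to 0.48) and differed in sign between numbers, at -0.032, 0.26 and 0.074. Leaving out KO mock number 3 or WT doxorubicin number 2 moved it to -0.0015 or -0.0034.

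Of genes above 0 in every number, the 10 with the smallest p in the replicate block fit were Tgfb1i1, Eva1b, Vasp, Ehbp1l1, Cdkn1a, Fermt2, Actg1, Twist1, Id3 and Adam19, and none was called. All 10 had 3 KO responses above all 3 WT responses (7.1% of all genes), which only describes values that the ranking used. Their adjusted p was 0.922 without the block and 0.171 to 0.196 with the replicate block over these and the 10 lower genes named next (limma).

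Tgfb1i1 encodes Hic-5, an adaptor of focal adhesions. It was at 222, 239.7 and 178 CPM in mock WT, 206, 216 and 181 CPM in mock KO, 89.9, 76.7 and 59.5 CPM in treated WT and 134, 132 and 99.2 CPM in treated KO cells. Treated WT libraries were lowest, treated KO libraries lay between them and mock, none of these ranges overlapped, and the interaction was 0.77 (SE 0.24). Vasp, which promotes elongation of actin filaments, was at 242, 266 and 192 CPM in mock WT, 247, 230.0 and 173 CPM in mock KO, 126, 97.8 and 76.5 CPM in treated WT and 167, 160.1 and 118 CPM in treated KO cells. Its interaction was 0.69 (SE 0.30), with treated KO and WT ranges that overlapped slightly between numbers and a higher KO value in each number. Fermt2, the integrin activator kindlin-2, had an interaction of 0.56 (SE 0.35), with a WT response of -0.97 and a KO response of -0.41. Actg1 encodes cytoplasmic gamma-actin and was at 625, 683 and 620.0 CPM in mock WT, 699, 776 and 588 CPM in mock KO, 361, 347 and 265 CPM in treated WT and 625, 544 and 430.3 CPM in treated KO cells. Treated KO cells were above all treated WT cells, close to mock in number 1, and the interaction was 0.62 (SE 0.23). Actin genes are near-identical in their coding sequence, and how the authors' counting treated reads shared between them is not given in the sources used here.

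The other genes of the higher group had different roles. Twist1, a transcription factor of mesenchyme, was at 44.9, 30.2 and 48.7 CPM in mock WT, 45.5, 33.4 and 55.1 CPM in mock KO, 48.9, 34.7 and 55.7 CPM in treated WT and 84.6, 52.3 and 81.7 CPM in treated KO cells. Mock levels of both genotypes and treated WT cells overlapped, and within each number the treated KO value was the highest, for an interaction of 0.52 (SE 0.37). Id3 encodes an inhibitor of helix-loop-helix transcription factors and a target of BMP signalling. It had values of 1.56, 0.93 and 0.43 by number, a mean of 0.97 (SE 0.55), and its KO mock levels ran over 56.7, 98.3 and 180.3 CPM. Adam19, a membrane metalloprotease, had an interaction of 0.60 (SE 0.19), Eva1b of 0.95 (SE 0.38) and Ehbp1l1 of 0.47 (SE 0.23).

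**Figure D2:**
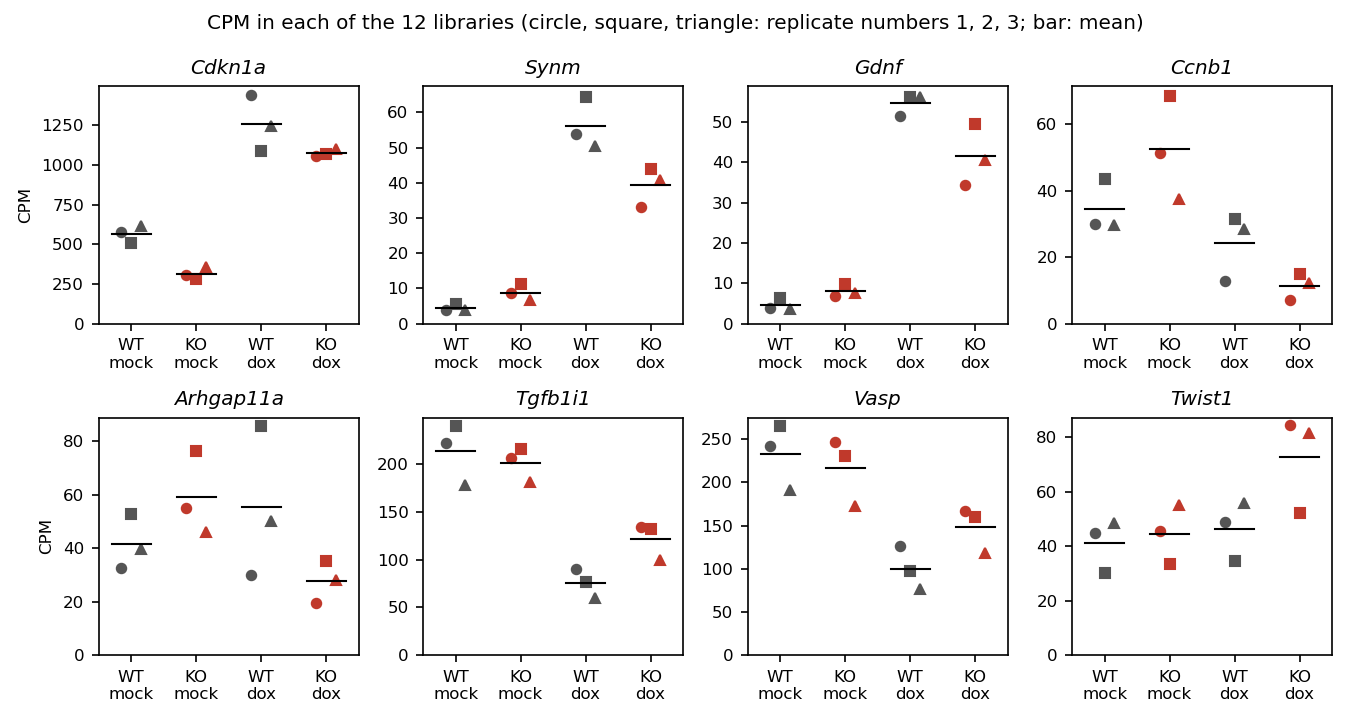
CPM of 8 genes in each of the 12 libraries, by group, with the replicate number as the symbol and the group mean as a bar; axes start at 0 and differ between panels. Cdkn1a differed more between the genotypes in mock than after doxorubicin, Synm and Gdnf were lower in treated KO than in treated WT cells, and Tgfb1i1, Vasp and Twist1 were higher.

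The 10 genes below 0 that ranked first in the same way were Synm, Ddit4l, Gdnf, Tmpo, Gkap1, Gxylt1, Arhgap11a, Dbf4, Smc3 and Fam20c. All had 3 KO responses below all 3 WT responses (9.74% of all genes), again among values that the ranking used.

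Synm encodes the intermediate filament protein synemin. It was at 3.70, 5.61 and 3.76 CPM in mock WT, 8.60, 11.2 and 6.596 CPM in mock KO, 53.8, 64.5 and 50.4 CPM in treated WT and 33.1, 43.8 and 40.9 CPM in treated KO cells. KO cells were above WT in mock and below WT after doxorubicin without overlap, the response was 3.43 in WT and 2.06 in KO, and the interaction was -1.37 (SE 0.29, 95% interval -2.01 to -0.74). Gdnf, a neurotrophic factor, was at 3.77, 6.31 and 3.59 CPM in mock WT, 6.75, 9.90 and 7.67 CPM in mock KO, 51.4, 56.2 and 56.3 CPM in treated WT and 34.4, 49.4 and 40.5 CPM in treated KO cells. The same crossing without overlap was seen, with an interaction of -1.14 (SE 0.29). Ddit4l, whose product inhibits mTORC1, was at 9.21, 8.92 and 21 CPM in mock WT, 15.2, 16.7 and 26.0 CPM in mock KO, 130.2, 126 and 253 CPM in treated WT and 84.3, 110.2 and 167 CPM in treated KO cells. Number 3 was high in every group, and the groups overlapped while each number gave a value below 0, at -1.28, -1.03 and -0.89. Fam20c, a kinase of the secretory pathway, had an interaction of -0.98 (SE 0.31), Gkap1, an anchor of cGMP-dependent kinase, of -0.92 (SE 0.33), and the xylosyltransferase gene Gxylt1 of -0.65 (SE 0.29).

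Arhgap11a encodes a GTPase-activating protein of dividing cells. It was at 32.4, 52.9 and 39.6 CPM in mock WT, 55.0, 76.3 and 45.9 CPM in mock KO, 29.99, 85.6 and 50.2 CPM in treated WT and 19.6, 35.4 and 28.1 CPM in treated KO cells. KO cells were above WT in mock and below WT after doxorubicin in each number, and the interaction was -1.37 (SE 0.49). Tmpo, a lamina-associated protein of the nuclear envelope, had an interaction of -0.80 (SE 0.40). Dbf4, the activating subunit of the CDC7 kinase that fires replication origins, had an interaction of -0.69 (SE 0.34), and the cohesin gene Smc3 of -0.53 (SE 0.21). For Smc3 the WT response was 0.31 and the KO response -0.22, of opposite sign in every number.

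**Figure D3:**
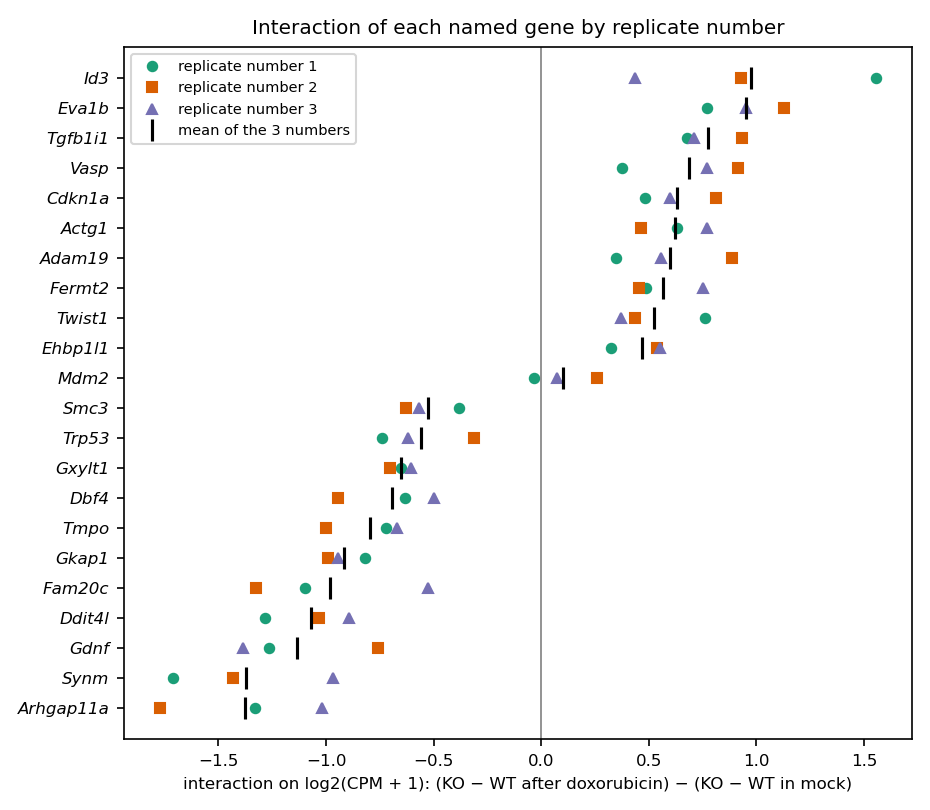
Interaction on log2(CPM + 1) of Cdkn1a, Trp53, Mdm2 and the 10 higher and 10 lower genes ranked first by p, as the value of each replicate number (symbols) and their mean (bar). Mdm2 is the only gene shown whose numbers lie on both sides of 0.

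Genes of mitosis stood lowest of the lists of at least 7 genes. Of 76 genes of G2/M and mitosis, 56 were in both tables, 19 were in the mock table only and 1 was in neither. The interaction was below 0 for 53 and above 0 for 3, with a median of -0.85 and number medians of -0.47, -1.44 and -0.63. 43 were below 0 in every number (26.9% of all genes), 34 had all KO responses below all WT responses (9.74% of all genes), and 39 were at an unadjusted p under 0.05 with the block (9.49% of all genes), while 0 were called. The median response was -1.55 in WT and -2.48 in KO. The median KO - WT difference was 0.44 in mock and -0.41 after doxorubicin, and 47 genes were above WT in mock and below WT after doxorubicin. The share of all genes that crossed in this way was not counted. The listing rule bears on this group, since a gene had to stay above 2 CPM in WT after doxorubicin and not in KO. Keeping genes by their treated WT level alone can by itself shift the remaining values below 0. Over the 49 members above 2 CPM in all 12 libraries, a choice made after the values were seen, the median was -0.84 and 46 were below 0. These 49 had passed the same WT rule, so they cannot show how the 19 genes of the mock table only behaved.

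One treated WT library weighed on the size. The mean log2(CPM + 1) of the 56 genes was 3.43, 4.73 and 3.67 in the WT doxorubicin libraries, with number 2 far above the others, and 3.46, 3.85 and 3.30 in the KO doxorubicin libraries. In mock it was 5.13, 5.65 and 5.22 in WT and 5.66, 6.17 and 5.47 in KO. Without WT doxorubicin number 2 the median interaction was -0.418, and without all 4 libraries of number 2 it was -0.563.

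The mitotic genes with the smallest p in the replicate block fit were Ccnb1, Ncapd2, Cdc20 and Incenp. Ccnb1, the cyclin that drives entry into mitosis, was at 30.01, 43.5 and 29.6 CPM in mock WT, 51.5, 68.5 and 37.5 CPM in mock KO, 12.7, 31.6 and 28.5 CPM in treated WT and 7.17, 14.9 and 12.1 CPM in treated KO cells. KO exceeded WT in mock and was less than WT after doxorubicin in each number, with an interaction of -1.56 (SE 0.50, values -1.51, -1.68 and -1.50). Cdc20, an activator of the anaphase-promoting complex, was at 35.8, 52.2 and 43.7 CPM in mock WT, 54.5, 89.9 and 53.6 CPM in mock KO, 14.4, 47.7 and 33.2 CPM in treated WT and 10.8, 19.1 and 18.7 CPM in treated KO cells. Its interaction was -1.37 (SE 0.54), and number 2 was farthest from 0 among -0.98, -2.05 and -1.09. The condensin gene Ncapd2 had an interaction of -1.19 (SE 0.45) and Incenp, of the chromosomal passenger complex, of -0.83 (SE 0.36).

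The sequences before the starts of Cdc20 and Ncapd2 were picked because they hold both elements named next, whereas that of Ccnb1 holds CCAAT and no TTTGAA. Genes of mitosis are known to be repressed through CHR elements, bound by the DREAM and MuvB complexes, and CCAAT boxes, bound by NF-Y. Each window shown is the 250 bases before a RefSeq start in GRCm38.p6, 5′ to 3′, with TTTGAA (CHR) and CCAAT in capitals on either strand, at chr4:118437344-118437593, minus strand, and chr6:125191587-125191836, minus strand:
Cdc20: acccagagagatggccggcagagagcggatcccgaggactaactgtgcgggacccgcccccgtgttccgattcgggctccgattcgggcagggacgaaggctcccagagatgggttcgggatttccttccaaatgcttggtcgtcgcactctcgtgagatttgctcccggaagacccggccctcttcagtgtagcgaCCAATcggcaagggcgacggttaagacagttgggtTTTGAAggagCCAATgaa
Ncapd2: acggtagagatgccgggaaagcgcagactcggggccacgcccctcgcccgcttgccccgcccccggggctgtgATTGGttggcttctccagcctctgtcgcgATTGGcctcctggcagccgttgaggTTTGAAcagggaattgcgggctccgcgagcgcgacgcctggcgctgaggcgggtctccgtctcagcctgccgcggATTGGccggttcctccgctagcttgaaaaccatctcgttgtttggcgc
The CHR of Cdc20 begins 18 bases before the start and that of Ncapd2 123 bases before it. Of the 56 genes, 48 had a window, and 37.7% of their 53 windows held TTTGAA, 77.4% held CCAAT and 35.8% held both, counted without regard to overlap. Of all 32851 windows, 16% held TTTGAA, 33.8% held CCAAT and 5.55% held both. Of the 10426 windows of genes in both tables, 10.1% held TTTGAA, 34.7% held CCAAT and 3.63% held both. The letters are a description, and repression or binding was not measured.

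**Figure D4:**
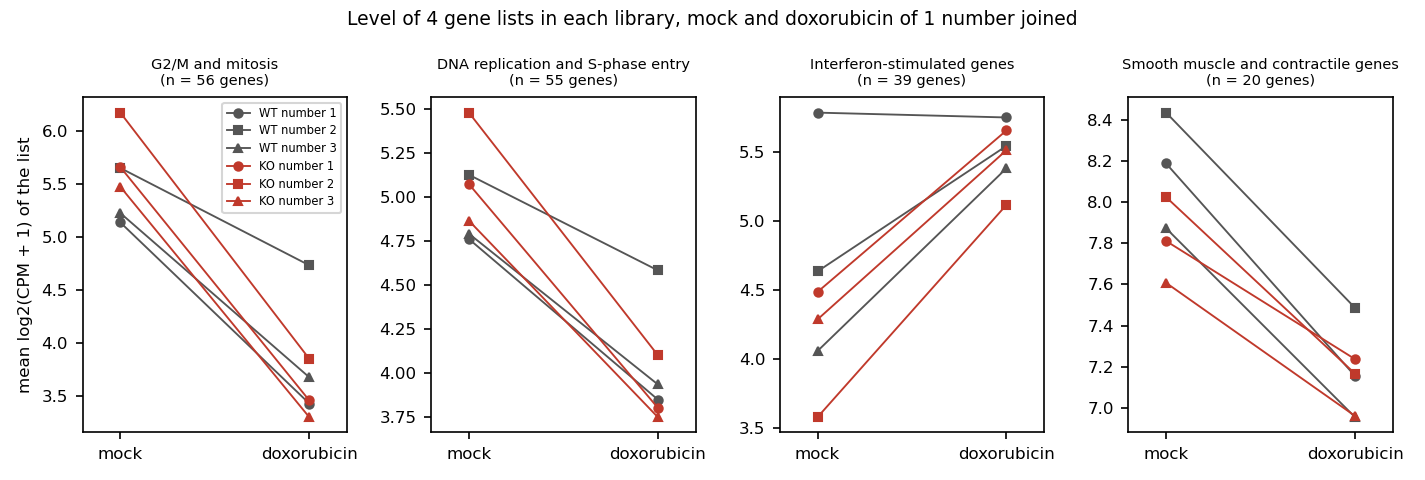
Mean log2(CPM + 1) of 4 gene lists in each library, with the mock and doxorubicin libraries of one genotype and number joined; the vertical axes do not start at 0. For genes of mitosis and replication the KO lines start above and end below or near the WT lines, with WT number 2 highest after doxorubicin; for interferon-stimulated genes WT mock number 1 stands above the other mock libraries.

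Genes of replication and S-phase entry leaned the same way with smaller values. Of 70 such genes, 55 were in both tables, 12 were in the mock table only and 3 were in neither. The listing rule bears on this list as on genes of mitosis, and how those 12 behaved cannot be told. Of the 55, 48 were below 0 and 7 above, the median was -0.44 and the number medians were -0.23, -0.78 and -0.13. 34 were below 0 in every number (26.9% of all genes) and 4 above (25.7%), and 23 had KO responses below all WT responses (9.74% of all genes). The median was -0.16 without WT doxorubicin number 2 and -0.26 without KO mock number 2. E2f7, an atypical E2F repressor that p53 induces, was at 8.52, 18.2 and 10.9 CPM in mock WT, 12.9, 23.8 and 13.4 CPM in mock KO, 9.51, 51.3 and 19.4 CPM in treated WT and 2.43, 17.6 and 8.92 CPM in treated KO cells. After doxorubicin the WT library was the higher one in each number, and number 2 was the highest in all 4 groups. Its interaction was -1.78 (SE 0.91), with a WT response of 0.79 and a KO response of -0.99. Orc1, the largest subunit of the origin recognition complex, had an interaction of -1.35 (SE 0.58) and the Bloom helicase gene Blm of -0.93 (SE 0.29).

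Inhibitors upstream of E2F did not share one direction. Of 9 CDK inhibitors and RB-family members, 5 were below and 4 above 0. Rb1, the retinoblastoma gene, was at 23.7, 23.5 and 28.7 CPM in mock WT, 34.3, 35.2 and 29.4 CPM in mock KO, 118, 113 and 163 CPM in treated WT and 103, 101 and 109.7 CPM in treated KO cells. KO was above WT in mock and below WT after doxorubicin in every number, with an interaction of -0.68 (SE 0.21). Cdkn2c, the gene of the CDK inhibitor p18, had an interaction of -1.15 (SE 0.50). Cdkn2a, which encodes p16 and ARF, was at 101, 97.1 and 230.2 CPM in mock WT, 112, 83.9 and 227 CPM in mock KO, 101, 59.4 and 185 CPM in treated WT and 160.2, 97.1 and 229 CPM in treated KO cells. Number 3 was far above the others in all groups, and within each number the treated KO value exceeded the treated WT value, for an interaction of 0.58 (SE 0.71, and 0.19 with the replicate block).

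Target genes of p53 as a class sat close to 0. Of 15 genes of p53 and its feedback regulators, 9 were below 0, with a median of -0.081. Ppm1d, the WIP1 phosphatase that turns p53 signalling off, was at 13.2, 14.03 and 11.5 CPM in mock WT, 13.2, 16.8 and 10.7 CPM in mock KO, 37.1, 55.1 and 50.5 CPM in treated WT and 24.2, 34.5 and 34.6 CPM in treated KO cells. Mock levels overlapped while every treated KO library was below every treated WT library, and the interaction was -0.65 (SE 0.29). Sesn1, a sestrin and p53 target, had an interaction of -0.71 (SE 0.24, values -0.84, -0.51 and -0.76), and Usp7, a deubiquitinase of MDM2 and p53, of -0.30 (SE 0.15).

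Among 35 p53 targets of arrest and signalling, 19 were below and 16 above 0, with a median of -0.038. Thbs1, the gene of the matrix protein thrombospondin-1, was at 17128, 17437 and 17330.0 CPM in mock WT, 13588, 14409 and 14562 CPM in mock KO, 8138, 6162 and 5981 CPM in treated WT and 11482, 8542 and 10069 CPM in treated KO cells. KO was lower in every mock comparison and higher in every treated one without overlap, and the interaction was 0.86 (SE 0.29). Sfn, which encodes 14-3-3 sigma, had values of -1.65, -0.62 and -1.25 (mean -1.17, SE 0.98), and number 2 was highest in every group. The 21 apoptosis targets had a median of -0.12, with the autophagy regulator Dram1 at an interaction of -0.79 (SE 0.30). The 26 targets of repair and metabolism had a median of -0.028. Fdxr, ferredoxin reductase, was at 7.89, 6.56 and 6.31 CPM in mock WT, 8.21, 7.02 and 7.44 CPM in mock KO, 30.6, 38.8 and 61.0 CPM in treated WT and 13.8, 20.4 and 31.6 CPM in treated KO cells. Treated KO cells had lower values than treated WT cells in every number, with an interaction of -1.09 (SE 0.40). Prkab2, a subunit of AMP-activated kinase, had an interaction of 0.72 (SE 0.21) and Pank1, a pantothenate kinase, of -0.58 (SE 0.44).

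Genes of DNA damage sensing and repair had a median of -0.092, with 28 of 42 below 0 and number medians of -0.25, -0.22 and 0.080. A further 7 of the 50 genes of this list were in the mock table only, so the listing rule bears on it too. Chek1, the checkpoint kinase of stalled replication, was at 6.91, 10.2 and 7.23 CPM in mock WT, 9.49, 14.5 and 10.7 CPM in mock KO, 4.37, 5.70 and 4.73 CPM in treated WT and 3.14, 2.84 and 3.70 CPM in treated KO cells. KO was above WT in mock and below WT after doxorubicin in each number, for an interaction of -0.95 (SE 0.27). Rif1, which restrains resection of breaks, had an interaction of -0.67 (SE 0.30). Blm belongs to this list too.

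Developmental genes known as Polycomb targets, named in the study's title, had a median of -0.088, with 47 of 89 in both tables, 29 below and 18 above 0. 12 were below and 10 above 0 in every number, shares near those of all genes (26.9 and 25.7%). Foxc2, a forkhead factor of mesenchyme, was at 19.8, 29.0 and 32.8 CPM in mock WT, 29.7, 43.0 and 31.7 CPM in mock KO, 16.7, 20.1 and 21.4 CPM in treated WT and 37.8, 48.8 and 38.5 CPM in treated KO cells. All treated KO values were above all treated WT values, the mock ranges overlapped, and the interaction was 0.71 (SE 0.29). Lmx1b, a limb and kidney patterning factor, was at 2.86, 2.76 and 2.95 CPM in mock WT, 6.49, 5.56 and 7.55 CPM in mock KO, 5.21, 7.07 and 8.24 CPM in treated WT and 7.61, 7.63 and 8.87 CPM in treated KO cells. Here KO was above WT in mock without overlap and close to WT after doxorubicin, for an interaction of -0.74 (SE 0.24). Twist2 had an interaction of 0.45 (SE 0.37).

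Among 30 components of the Polycomb repressive complexes the median was -0.11. Rnf2, the ubiquitin ligase subunit of PRC1, had the steadiest value of the components named here, at -0.41, -0.40 and -0.39 by number (-0.40, SE 0.13). It was at 63.4, 61.7 and 68.1 CPM in mock WT, 74.9, 72.4 and 74.8 CPM in mock KO, 101, 106 and 119 CPM in treated WT and 89.2, 94.5 and 99.4 CPM in treated KO cells. KO lay above WT in mock and below WT after doxorubicin without overlap. The chromobox gene Cbx2 had an interaction of -0.57 (SE 0.25), Kdm2b, which recruits PRC1 to CpG islands, of -0.41 (SE 0.17), and Cbx6 of 0.36 (SE 0.27). The 23 Hox genes, which pattern the body axis and limb, had a median of 0.028. Hoxa13 was at 2.72, 2.61 and 2.89 CPM in mock WT, 8.79, 6.82 and 8.79 CPM in mock KO, 6.32, 6.24 and 5.46 CPM in treated WT and 12.9, 11.0 and 10.1 CPM in treated KO cells. KO exceeded WT without overlap in both conditions, and the interaction was -0.47 (SE 0.21). Hoxc10 was lower in KO within every number in both conditions, with an interaction of -0.51 (SE 0.44), while Hoxa11 had an interaction of -0.43 and Hoxa10 of 0.35.

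Genes flanking Cdkn1a had a median of 0.087, with 13 of 20 above 0. Brpf3, a bromodomain gene, had values of 0.51, 0.48 and 0.53 (0.51, SE 0.26). Tbc1d22b had values of 0.41, 0.39 and 0.44 (0.41, SE 0.24). Mdga1, a membrane glycoprotein gene, was at 12.8, 21.7 and 16.4 CPM in mock WT, 13.2, 21.02 and 12.0 CPM in mock KO, 36.6, 62.9 and 72.1 CPM in treated WT and 15.3, 30.4 and 37.6 CPM in treated KO cells. Mock ranges overlapped and treated KO values were less than treated WT values in every number, for an interaction of -0.91 (SE 0.50). The list mixed both signs, and Cdkn1a was its highest member.

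Contractile and actin genes mostly had the reverse sign to genes of mitosis, as did most genes slightly below mock after doxorubicin. Of all 4416 genes with a mean response between -1 and 0, 3056 were above 0, with a median of 0.112. Of 20 smooth muscle and contractile genes in both tables, 14 were above and 6 below 0, with a median of 0.36 and number medians of 0.51, 0.13 and 0.34. The median response was -0.89 in WT and -0.51 in KO, from a median KO - WT difference of -0.32 in mock and -0.0056 after doxorubicin. 9 were above 0 in every number (25.7% of all genes) and 5 were at an unadjusted p under 0.05 with the block (6.15% of all genes). The median was 0.15 without WT doxorubicin number 3, 0.224 without KO mock number 3 and 0.166 without the libraries of number 1.

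Cnn2, a calponin that binds actin, was at 865, 891 and 838 CPM in mock WT, 856, 863 and 773 CPM in mock KO, 366, 375 and 219 CPM in treated WT and 654, 531 and 417 CPM in treated KO cells. Mock values of the genotypes overlapped and all treated KO values were above all treated WT values, for an interaction of 0.81 (SE 0.29). Lmod1, a leiomodin of smooth muscle, had an interaction of 1.05 (SE 0.54), the tropomyosin gene Tpm1 of 0.53 (SE 0.51) and Pdlim7 of 0.37 (SE 0.34). A wider list of 74 genes of the actin cytoskeleton and focal adhesions was drawn up after the higher genes had been seen, so its direction is no separate evidence. In it 55 were above and 19 below 0, with a median of 0.18 and number medians of 0.15, 0.21 and 0.24. The median response of the list was -0.32 in WT and -0.079 in KO, a range in which most of all genes were above 0. KO was below WT in mock and above WT after doxorubicin for 32 of them, a share not counted over all genes. Without WT doxorubicin number 3 or KO mock number 3 the median was 0.111 or 0.116. The 18 fibroblast markers had a median of 0.12, with the limb mesenchyme factor Prrx1 at an interaction of 0.62 (SE 0.39) and the collagen gene Col5a1 of 0.35 (SE 0.23).

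The windows of Cnn2 and Actg1 are shown because both hold a CArG box, the element bound by serum response factor in actin and contractile genes. They are 250 bases before RefSeq starts in GRCm38.p6, 5′ to 3′, box in capitals, at chr10:79988350-79988599, plus strand, and chr11:120348496-120348745, minus strand:
Cnn2: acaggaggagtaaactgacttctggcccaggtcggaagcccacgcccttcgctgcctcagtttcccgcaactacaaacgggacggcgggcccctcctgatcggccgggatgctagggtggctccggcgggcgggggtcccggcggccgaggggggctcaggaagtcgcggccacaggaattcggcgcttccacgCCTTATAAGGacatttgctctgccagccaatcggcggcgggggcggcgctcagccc
Actg1: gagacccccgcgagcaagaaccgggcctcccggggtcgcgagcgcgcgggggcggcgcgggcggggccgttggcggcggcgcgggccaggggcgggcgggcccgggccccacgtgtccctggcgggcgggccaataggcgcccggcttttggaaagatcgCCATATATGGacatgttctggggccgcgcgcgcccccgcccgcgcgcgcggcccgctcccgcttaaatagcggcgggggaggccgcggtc
The box begins 56 bases before the start of Cnn2 and 90 bases before that of Actg1. Of the 20 contractile genes 16 had a window, and the box was found, on either strand, in 4 of their 19 windows (21.1%), in 5.95% of windows of the actin list and in 1.47% of all windows. Among windows of the genes in both tables, 1.23% held it. The window of Vasp held no such box. Factor binding was not measured.

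Interferon-stimulated genes had the highest list median, 0.51, and the numbers differed. Of 39 in both tables, 34 were above 0, and a further 14 were in the doxorubicin table only. The listing rule bears on this list as well, since keeping genes by their WT mock level can shift the remaining values above 0. How those 14 behaved cannot be told. The number medians were 1.2, 0.61 and -0.039. The median KO - WT difference was -0.70 in mock and -0.10 after doxorubicin. The mean log2(CPM + 1) of the list was 5.78, 4.63 and 4.05 in WT mock and 4.48, 3.58 and 4.28 in KO mock libraries, so that WT number 1 was high and KO number 2 low. After doxorubicin all 6 libraries lay between 5.11 and 5.75. Without WT mock number 1 the median was 0.083, without KO mock number 2 it was 0.310, and without WT mock number 3 it was 0.897. Irf9, the DNA-binding subunit of the interferon-activated factor ISGF3, was at 76.4, 39.3 and 32.3 CPM in mock WT, 32.7, 15.4 and 37.7 CPM in mock KO, 47.5, 35.6 and 42.2 CPM in treated WT and 59.7, 39.1 and 53.9 CPM in treated KO cells. Only numbers 1 and 2 had a KO mock value less than WT, and the interaction values were 1.52, 1.43 and 0.13 (mean 1.03, SE 0.50). The RNA sensor gene Ddx58 had an interaction of 1.02 (SE 0.43), Xaf1 of 1.45 (SE 0.87) and Ifi27 of 0.92 (SE 0.69).

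Other signalling lists stayed near 0. The 36 secreted inflammatory factors had a median of -0.030, with 18 below and 18 above. Icam1, an adhesion molecule of leukocyte binding, was at 5.72, 2.71 and 5.21 CPM in mock WT, 6.18, 3.23 and 6.48 CPM in mock KO, 139.9, 161 and 360.3 CPM in treated WT and 59.0, 75.1 and 216 CPM in treated KO cells. Mock levels were low in both genotypes, number 3 was highest after doxorubicin in both, and the interaction was -1.20 (SE 0.69). Fgf7, a fibroblast growth factor for epithelium, was at 39.4, 38.7 and 78.3 CPM in mock WT, 32.5, 47.2 and 78.9 CPM in mock KO, 21.9, 31.5 and 28.6 CPM in treated WT and 55.5, 65.3 and 48.0 CPM in treated KO cells. Every treated KO library was above every treated WT library, for an interaction of 1.01 (SE 0.46). Tnfsf11, the gene of RANKL, had an interaction of 0.68 (SE 0.42) and Inhba, an activin subunit, of 0.54 (SE 0.42).

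Of 31 immediate-early genes the median was 0.049. Ccn1, a matricellular protein gene, was at 841, 1003 and 647 CPM in mock WT, 838, 1006 and 633 CPM in mock KO, 745, 597 and 511 CPM in treated WT and 1018, 1042 and 838 CPM in treated KO cells. Mock values were nearly equal within numbers and all treated KO values were above all treated WT values, for an interaction of 0.67 (SE 0.30). Fos, an AP-1 subunit, had an interaction of -0.90 (SE 0.35), the phosphatase gene Dusp1 of 0.54 (SE 0.38) and Ccn2 of 0.58 (SE 0.77). The 40 genes of TGF-beta and BMP signalling had a median of 0.064, with the BMP antagonist Chrd at an interaction of -0.98 (SE 0.50) and Ltbp1, which stores latent TGF-beta in matrix, of 0.44 (SE 0.25). The 32 Wnt genes had a median of -0.064. The ligand Wnt5a had an interaction of 0.55 (SE 0.28), the receptor Fzd7 of 0.40 (SE 0.28), the destruction complex gene Apc of -0.30 (SE 0.19) and the transcription factor Tcf7 of -0.88 (SE 0.42).

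Housekeeping lists had medians near 0. The 72 cytosolic ribosomal proteins had a median of 0.078 and a range of -0.13 to 0.28, with 61 above 0. Many ribosomal protein genes have near-identical pseudogenes, so their counts are uncertain. The 53 genes of nucleolar ribosome assembly had a median of -0.030 and a range of -0.82 to 0.31, with Nop14 at an interaction of -0.52 (SE 0.22) and Nhp2 of -0.53 (SE 0.29). The medians were 0.041 for 60 genes of oxidative phosphorylation and 0.0024 for 31 proteasome genes. None of these genes was called.

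In lists of stress and lipid metabolism single genes stood out against medians near 0. The 22 cholesterol genes had a median of -0.011, with number medians of 0.45, -0.23 and -0.11. Mvk, mevalonate kinase, had an interaction of -0.66 (SE 0.34) and Acat2, a thiolase, of -0.63 (SE 0.21). The 38 genes of the unfolded protein and amino acid stress responses had a median of -0.090. Among them, the amino acid transporter gene Slc7a5 was at 281, 291 and 269.9 CPM in mock WT, 303, 292 and 280.4 CPM in mock KO, 132, 290.5 and 236 CPM in treated WT and 69.9, 125 and 151 CPM in treated KO cells. Mock ranges overlapped, the treated KO value was lower in every number, and the interaction was -0.98 (SE 0.41). Slc7a11, the cystine transporter gene, had an interaction of -0.75, Edem1, of protein degradation in the endoplasmic reticulum, of -0.50 and the glycyl-tRNA synthetase gene Gars of 0.26.

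The 27 heat shock genes had a median of -0.028, and 4 were at an unadjusted p under 0.05 with lower values (9.49% of all genes) and 0 with higher. Dnajb1, a co-chaperone of HSP70, was at 54.3, 56.9 and 50.3 CPM in mock WT, 53.5, 57.7 and 50.01 CPM in mock KO, 157, 190.3 and 258 CPM in treated WT and 93.5, 134 and 173 CPM in treated KO cells. Mock levels were nearly equal between genotypes, the treated KO value was lower in every number, and the interaction was -0.60 (SE 0.30). Hspa1b, an inducible HSP70 gene with a near-identical neighbour, had an interaction of -0.90 (SE 0.47) and Hsph1 of -0.31 (SE 0.20). The 45 genes of lysosome and autophagy had a median of -0.047. Ulk1, the kinase that starts autophagy, was at 57.4, 56.4 and 55.7 CPM in mock WT, 56.5, 54.4 and 62.1 CPM in mock KO, 214, 258 and 313 CPM in treated WT and 108, 137 and 209 CPM in treated KO cells. Mock ranges overlapped, all treated KO values were below all treated WT values, and the interaction was -0.85 (SE 0.29, values -0.96, -0.85 and -0.74). Gabarapl1, of autophagosome membranes, had an interaction of -0.28 (SE 0.13).

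Most markers of muscle, endothelium and blood were not in both tables, whereas cartilage and epithelial markers were measured. Skeletal muscle markers had 2 of 26 genes in both tables, endothelial markers 4 of 19 and blood and macrophage markers 1 of 25. Cartilage and bone markers summed to 1150 to 2150 CPM in WT mock, 2360 to 4060 CPM in KO mock, 1090 to 1400 CPM in WT doxorubicin and 1660 to 2100 CPM in KO doxorubicin libraries. Summed epithelial markers came to 179 to 288 CPM in mock WT and 152 to 288 CPM in mock KO cells, and to 989 to 1340 CPM in WT and 539 to 1050 CPM in KO after doxorubicin. Their part in the interactions was not tested. All 7 epithelial genes in both tables were below 0, with a median of -0.28 and number medians of -1.07, -0.22 and -0.22. The median response of these 7 was 1.62 in WT and 1.35 in KO. Of all genes with a mean response of 1 to 2, 83.8% were below 0, with a median of -0.355. The median ran from -0.873 without KO doxorubicin number 2 to -0.079 without the libraries of number 1. Esrp2, an epithelial splicing regulator, was at 6.42, 7.37 and 3.99 CPM in mock WT, 4.97, 4.95 and 4.57 CPM in mock KO, 65.9, 63.6 and 84.7 CPM in treated WT and 23.8, 33.9 and 37.0 CPM in treated KO cells. Treated KO was below treated WT without overlap, for an interaction of -0.95 (SE 0.31), and the desmosomal gene Pkp1 had an interaction of -1.08 (SE 1.23), with number 2 highest in all groups.

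Of 8 adipocyte genes 6 were below 0, with a median of -0.30, which ran from -0.434 without KO doxorubicin number 2 to -0.081 without WT doxorubicin number 2. Dgat2, the enzyme of the last step of triglyceride synthesis, was at 3.77, 3.71 and 4.11 CPM in mock WT, 2.74, 3.89 and 6.202 CPM in mock KO, 20.5, 119.9 and 139 CPM in treated WT and 5.12, 27.8 and 52.0 CPM in treated KO cells. Mock levels were under 7 CPM in every library and treated KO values were less than treated WT values in every number, with an interaction of -1.83 (SE 1.11, 95% interval -4.26 to 0.61). Cebpa, a transcription factor of adipocytes, had an interaction of -1.43 (SE 0.69). Of 7 neural genes 3 were below and 4 above 0, with a range of -0.92 to 0.69. Their median was 0.046 (-0.259 without WT doxorubicin number 1). The tubulin gene Tubb3, with an interaction of -0.92 (SE 0.42), and Mbp, of -0.52 (SE 0.30), were among those below 0. The 7 cartilage and bone genes had a median of -0.30 and 4 below 0, and without KO mock number 2 the median was 0.076.

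**Figure D5:**
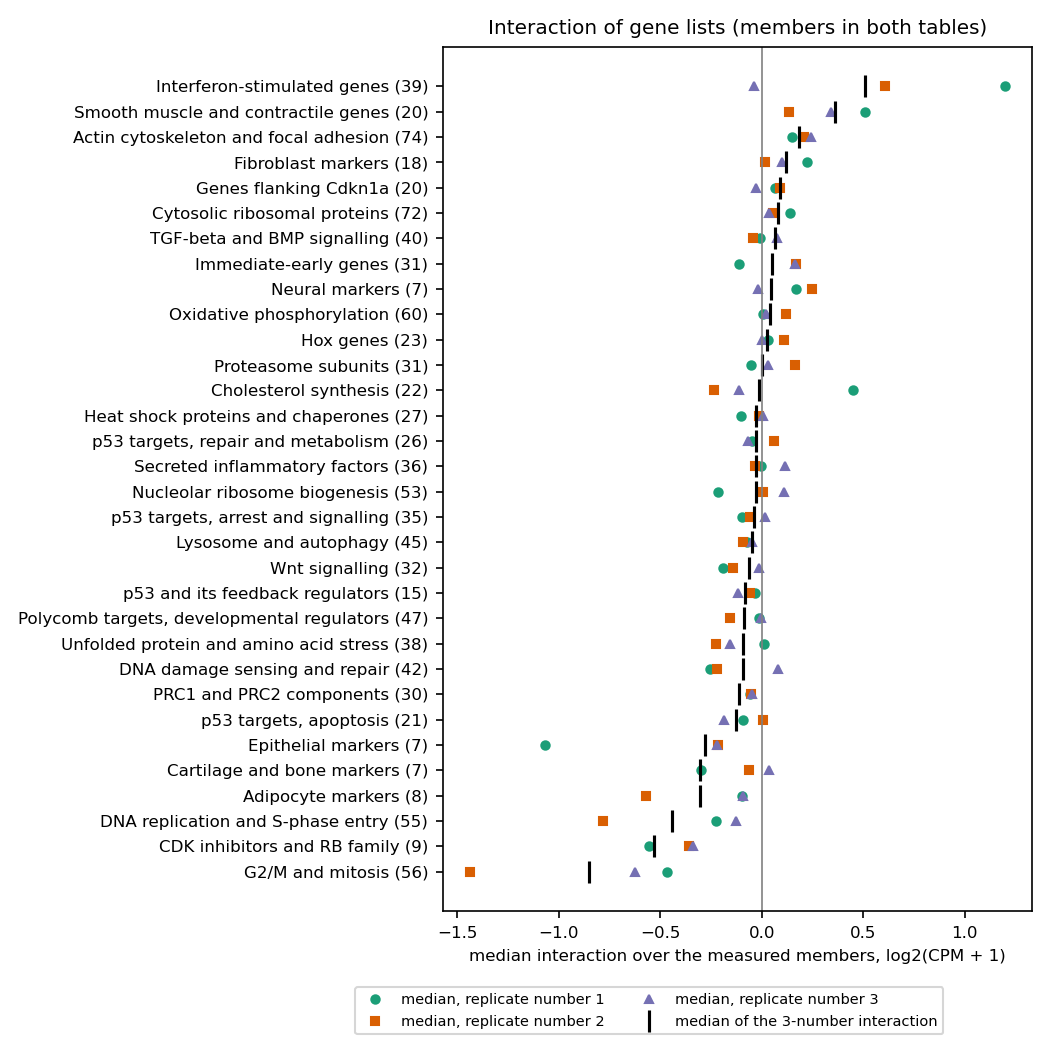
Median interaction on log2(CPM + 1) over the members of each list found in both tables, for lists of at least 7 genes (number of genes in brackets): the bar is the median of the 3-number values and the symbols the medians of single numbers. Genes of mitosis lie lowest at -0.85 and interferon-stimulated genes highest at 0.51, where the numbers spread from -0.039 to 1.2.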

How the data were processed

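RNA-seq was measured in 12 libraries, 3 in each of 4 groups. The authors deposited CPM per gene in one table for mock and one for doxorubicin, per the file headers. Library preparation used a stranded mRNA kit, per the labels' protocols. TopHat2 2.0.6, HTSeq, edgeR and NCBIM37 are named in the submitters' processing notes, without roles. Whole multiples of one read were found for 100% of deposited CPM values, within 0.001 of a read, which gave totals of 14327048 to 20511907 reads, so both tables share a scale. Names matched the RefSeq table of GRCm38.p6 as symbols (8894) or synonyms (1081), and 317 did not; 8084 genes had a promoter window.

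Interactions were computed on log2(CPM + 1), which understates the change of low genes, and fitted in R 4.3.3 by limma 3.58.1 with lmFit and eBayes (trended) over all 10292 genes, with Benjamini-Hochberg adjustment at 0.05. SE and 95% intervals are from the fit of the 4 groups without a block unless a block is named. As a check of pairing, deviations from group means correlated at 0.342 to 0.856 between libraries of one number and at -0.732 to -0.0065 between numbers, so the number was also fitted as a replicate block. Named genes were Cdkn1a, Trp53, Mdm2, the 10 genes in each direction with the smallest p under the block and one sign in every number, and up to 4 genes per list with the smallest such p. Some genes that this rule names are not reported here. The members and lists were chosen with earlier results of these data known. The fits were tested on simulated data. Alternatives were pseudocounts, filters, scalings, blocks and leaving out libraries. Without a block, p-values and SE measure the spread between libraries of a group, differences between numbers included. With the replicate block they measure the spread left after the numbers are fitted.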

Additional observations from a re-analysis of the deposited data

Results flagged for a closer look

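Among the 142 genes named by the rule, 6 responded to doxorubicin in opposite directions in the genotypes in all 3 numbers, as did 111 of all 10292 genes (53 above mock in WT and below it in KO, 58 the other way). None of the 6 interactions passed over all genes with the replicate block (limma, adjusted p = 0.196 to 0.243). Smc3, a cohesin subunit gene, had a WT response of 0.31, a KO response of -0.22 and an interaction of -0.527. E2f7, the E2F repressor gene, had 0.79 in WT and -0.99 in KO, an interaction of -1.78. For Cdkn2a, which encodes p16 and ARF, the responses were -0.34 and 0.24 and the interaction 0.58, with WT number 1 (-4.22e-05) and KO number 3 (0.011) at almost no difference from mock. Foxc2, a forkhead factor gene, had responses of -0.45 and 0.26 and an interaction of 0.711. Ccn1, a matricellular protein gene, had -0.42 and 0.24, an interaction of 0.666. Ltbp1, of latent TGF-beta storage, had -0.14 and 0.30, an interaction of 0.442.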

How the results depend on the processing

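Under 42 other settings limma called 0 genes in each. The smallest adjusted p was 0.873 to 0.922 without a block over all samples, 0.343 to 1 with one library left out, and 0.0553 to 0.727 with a replicate block of any kind; a block by culture gave 0.387 and the 3 numbers' differences 0.0833. The count tests planned for whole reads were not run. The Cdkn1a interaction ran from 0.531 to 0.737, above 0 throughout. Of 4312 pairs of a named gene and a setting, 4 changed sign, all for Mdm2: -0.0015 and -0.0034 without KO mock replicate 3 or WT doxorubicin replicate 2, and -0.0066 and -0.057 for the same with the replicate block, while the highest values with one library left out were 0.193 without and 0.217 with the replicate block; the cause was not tested. The replicate block changed no call. List medians moved by at least 1 SD of the numbers in 182 of 1512 cases: genes of mitosis ran from -1.07 to -0.418, replication from -0.555 to -0.16, interferon-stimulated genes from 0.083 to 0.931, contractile genes from 0.15 to 0.468 and the actin list from 0.111 to 0.278. The filter at a mean of 1 CPM removed 0 genes. With 3 cultures a group, precision is limited to the 95% intervals given.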
